A study of Mus musculus with 16 samples.

Results

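The genes described here are 31 genes of macrophages, the tissue-resident phagocytes of the innate immune system, followed in a RiboTag experiment on the neonatal mouse cochlea. They were taken by gene symbol from the deposited expression files, which listed values for 47729 genes, and all 31 were found. They were listed by known cell type rather than by a measured value, although earlier results of these data were known when the list was made. The list held genes of identity and signalling (Csf1r, Cx3cr1, Adgre1, Aif1, Spi1, Irf8), the C1q complement chains (C1qa, C1qb, C1qc), Fc receptors and ITAM adapters (Tyrobp, Fcer1g, Fcgr3, Fcgr1, Trem2), scavenger receptors, pattern receptors and resident markers (Mrc1, Cd163, Msr1, Lyve1, Cd14, Ly86, Ms4a7, Pf4), lysosomal and killing proteins (Cd68, Lyz2, Ctss, Laptm5, Cybb, Mpeg1) and pan-leukocyte genes (Ptprc, Cd53, Lcp1).

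The study compared P4 cochleae with and without ablation of Lgr5+ supporting cells (SCs). Control cochleae were GLAST CreERT/+; Rpl22 HA/+ and damaged cochleae were Lgr5 DTR/+; GLAST CreERT/+; Rpl22 HA/+, so both carried the Cre driver and the tagged ribosomal protein, and the diphtheria toxin receptor was carried by the damaged group alone. By the study's methods both genotypes received diphtheria toxin and tamoxifen at P1, while the sample labels call the control "No treatment" and the damaged group "DTR treated". Each replicate was a pool of 8 cochleae from 4 mice, dissected free of spiral ganglion, lateral wall and Reissner's membrane, and each pool gave an input library (RNA of the whole homogenate) and an IP library (RNA pulled down with HA-tagged ribosomes, which are made where the GLAST promoter drives Cre). There were 4 libraries of each kind, control input, DTR input, control IP and DTR IP, 16 in all. The tissue therefore keeps whatever immune cells lie in the sensory epithelium and adjoining mesenchyme, and macrophages themselves were neither sorted nor counted for these libraries.

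Macrophages are seeded into tissues before birth and are kept alive by signals through CSF1R, the receptor for CSF1 and IL-34. The transcription factors PU.1 (encoded by Spi1) and IRF8 set up their gene programme. When cells die nearby, macrophages bind debris with complement C1q, Fc receptors and scavenger receptors, signal through the ITAM adapters DAP12 (Tyrobp) and the Fc receptor gamma chain (Fcer1g), and break down the cargo in lysosomes rich in CD68, lysozyme and cathepsin S. In the cochlea, macrophages are known from the spiral ganglion, the lateral wall and the tissue under the organ of Corti.

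Values are CPM, the reads of a gene per 1000000 reads counted on genes in that library. Libraries held 28089836 to 41966310 counted reads, so that 3 reads amounted to between 0.0715 and 0.107 CPM. Lgr5, the gene whose locus carries the receptor, was at 63.3 ± 3.03 CPM in control input and 15.9 ± 3.69 in DTR input (mean ± SD, n = 4), with a log2 fold change (LFC) of -2.004 (SE 0.15, adjusted p = 2.2e-08). Slc1a3, which encodes GLAST, was at 281 ± 14.3 and 271 ± 19.8 CPM in the same groups. Among the DTR libraries, those of replicate 2 had the lowest value for 25 of the 31 macrophage genes in input and for 23 of 31 in IP, and the counts of genes that were higher after damage or did not overlap between groups are also given without them.

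Promoter sequence of some of the genes that carry the main results is shown first. Windows of 300 bases, from 250 before to 50 after the transcription start in RefSeq (GRCm38.p6), were given for 23 of the 31 genes, 28 windows in all with alternative starts. The letters GAGGAA, the core bound by PU.1, were searched on both strands, together with the core of the interferon response element (GAAA, any 2 bases, GAAA). Matches of the 2 motifs overlapped in 0 cases. The windows of Fcgr1 (the largest rise in both sample types), C1qb (the most abundant gene per length) and Ctss (past the study's own rule in input) read as follows, 5′ to 3′ on the gene's strand, with matched letters in capitals on whichever strand they matched.
Fcgr1, chr3:96293920-96294219, minus strand: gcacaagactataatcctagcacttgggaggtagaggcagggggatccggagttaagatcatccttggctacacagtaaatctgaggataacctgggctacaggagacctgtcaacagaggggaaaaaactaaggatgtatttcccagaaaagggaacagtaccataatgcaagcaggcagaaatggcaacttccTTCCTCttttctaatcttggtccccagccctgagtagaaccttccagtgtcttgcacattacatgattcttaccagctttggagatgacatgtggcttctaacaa
C1qb, chr4:136886151-136886450, minus strand: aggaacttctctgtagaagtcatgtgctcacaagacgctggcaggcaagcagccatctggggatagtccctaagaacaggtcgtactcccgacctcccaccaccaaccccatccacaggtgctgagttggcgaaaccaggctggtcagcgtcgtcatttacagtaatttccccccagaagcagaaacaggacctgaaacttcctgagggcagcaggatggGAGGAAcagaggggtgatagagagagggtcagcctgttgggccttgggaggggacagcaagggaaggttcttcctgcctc
Ctss, chr3:95526536-95526835, plus strand: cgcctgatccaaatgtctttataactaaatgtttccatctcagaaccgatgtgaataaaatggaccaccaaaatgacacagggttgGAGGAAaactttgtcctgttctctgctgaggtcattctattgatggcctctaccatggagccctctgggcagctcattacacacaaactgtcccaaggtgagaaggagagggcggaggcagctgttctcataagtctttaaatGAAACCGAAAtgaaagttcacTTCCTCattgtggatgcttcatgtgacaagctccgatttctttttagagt

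The Fcgr1 window held a PU.1 match on the opposite strand that began 55 bases before the start. C1qb held a single PU.1 match and Ctss held 2 PU.1 matches and an interferon response match. Other genes past the study's rule in input or IP differed. Cd68 held 2 PU.1 matches, the windows of Irf8, Lyz2 and Mpeg1 held 0 of either motif, and Spi1 had no window. Over all macrophage gene windows, GAGGAA occurred in 16 of 28 (57.1%), against 28.3% of the 32851 windows of all genes. Windows of alternative starts can share a match, as those of Fcgr3 did. By gene it occurred in 15 of 23, with no share by gene over all genes to set beside it. The interferon response letters occurred in 3 of 28 (10.7% against 3.44%), in Ctss, Aif1 and Cybb. These matches describe the letters of the windows, and binding was not measured.

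In undamaged cochleae the macrophage genes were detected at low to moderate levels. Together they amounted to 305, 289, 274 and 296 CPM in the 4 control inputs, and 28 of the 31 had more than 3 reads in every library. Compared per kilobase of exon, the mean level in control input was highest for C1qb (21.7 CPM per kb), Lyz2 (17.7), Pf4 (15.3) and Tyrobp (13.4). It was lowest for Cd163 (0.0879), Ptprc (0.126) and Msr1 (0.234). Fcgr1 stood at place 27 of 31 with 0.452 CPM per kb. Cd163, a hemoglobin scavenger receptor, was the gene that did not pass the expression filter (0.5 CPM or more in each library of some group), since it ran from 0 to 0.886 CPM and was listed at 0 in control input replicate 3 and DTR IP replicate 3. The other 30 were tested.

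**Figure D1:**
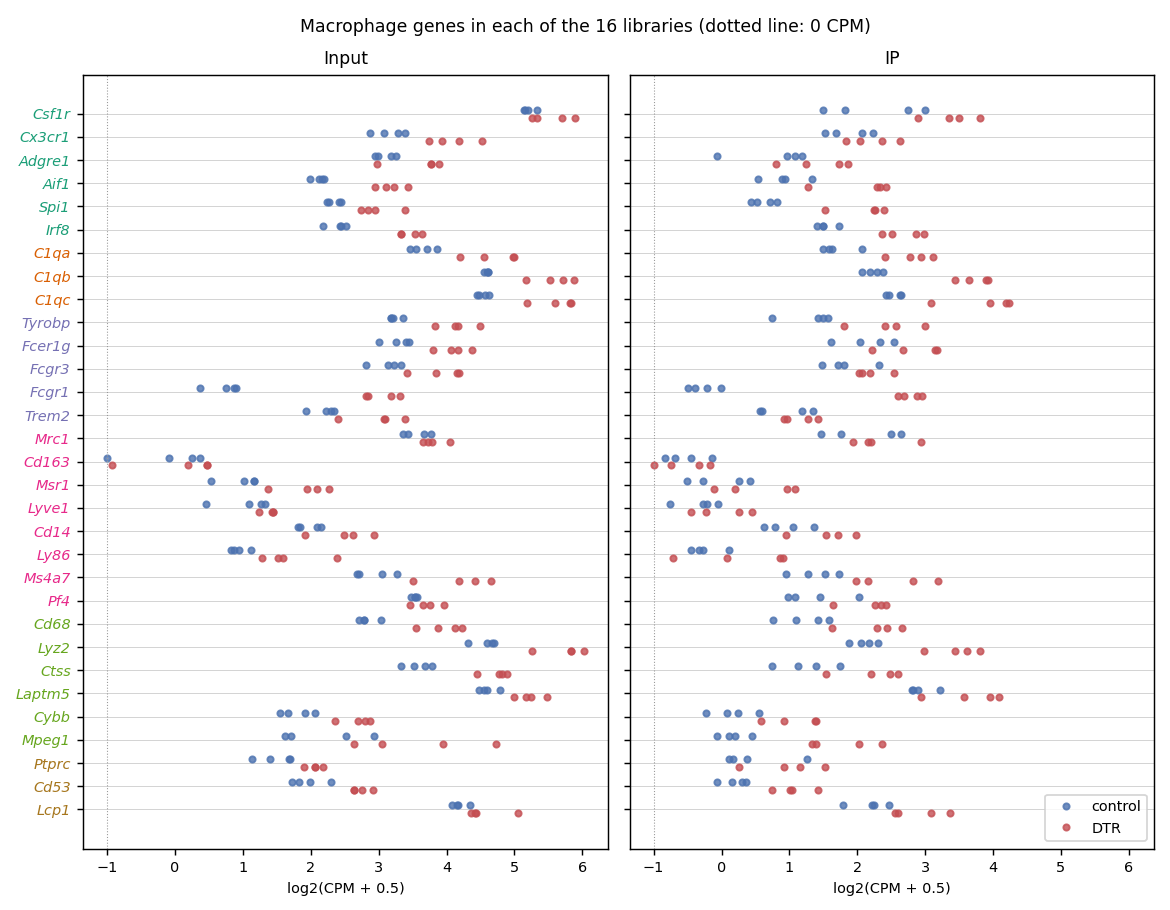
Level of each macrophage gene in each library, as log2(CPM + 0.5), with input on the left and IP on the right. Blue points are the 4 control and red points the 4 DTR libraries, and label colours mark the groups of genes. In input, DTR points lie wholly to the right of control points for 23 of 31 genes, and values in IP are lower than in input for nearly all genes.

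The first comparison asked whether macrophage transcripts changed in the whole tissue after SC loss. All 3 C1q chains, all 5 Fc receptor and ITAM genes and all 6 lysosomal genes passed as higher in damaged cochleae, with 3 of 6 identity genes, 1 of 7 scavenger and resident genes and 1 of 3 pan-leukocyte genes, and no test compared these roles. The calls of Trem2, Laptm5, Cybb and Mpeg1 were lost in 4 to 7 of the 8 fits that left out an input library. Fcgr1, the high-affinity receptor for IgG, had the largest LFC. Summed over the 31 genes, DTR input held 586, 405, 513 and 636 CPM (535 ± 100.4, mean ± SD, n = 4) and control input 291 ± 12.8, a ratio of 1.84. The lowest DTR pool, replicate 2, lay above the highest control pool. Of 30 genes tested, 19 were higher, 0 were lower and 11 did not pass, where 7.17% of all 16994 tested genes were higher and 5.21% lower. The median LFC was 0.81 for the macrophage genes and -0.02 for all genes tested, and all 30 LFC values were positive. In 23 of 31 genes every DTR input lay above every control input, a separation that 11.6% of all tested genes showed. Without DTR input replicate 2, 20 genes were higher and 29 of 31 did not overlap (13.6% of all tested genes), and without replicate 1 of the same group 13 were higher. Replicate 2 was picked for its low values in these genes. Leaving out a library can only keep or raise the count without overlap, so the larger count adds no support. Shares of all tested genes called higher in these 2 fits are not given here. In bulk tissue, more macrophages and more RNA per macrophage cannot be told apart.

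IP libraries asked the same of the RNA recovered with HA-tagged ribosomes. Whether macrophage RNA there lay on tagged ribosomes or was carried over in the IP was not tested. Here too 19 of 30 genes were higher after damage and 0 lower, where 8.44% of all tested genes were higher and 7.3% lower. The median LFC was 0.71, against -0.0043 for all genes tested. The sum over the 31 genes was 82.5, 79.2, 64.4 and 56.3 CPM in control IP and 181, 114, 149 and 178 in DTR IP, a ratio of 2.21, without overlap between groups. By single genes, 14 of 31 showed every DTR IP above every control IP, against 10.5% of all tested genes. Without DTR IP replicate 2, 19 genes were higher and 20 of 31 did not overlap (13.8% of all tested genes). That library too was picked for its low values, so the larger count without overlap adds no support. The share of all tested genes called higher in that fit is not given here. Input and IP libraries came from the same homogenates. Between them, 15 genes passed in both, 4 in input alone (Cx3cr1, Fcer1g, Fcgr3, Trem2), 4 in IP alone (Csf1r, Spi1, Pf4, Lcp1) and 7 in neither (Adgre1, Mrc1, Msr1, Lyve1, Cd14, Ly86, Ptprc). These memberships depend on the fit, and Spi1 passed in input too under 6 other settings.

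**Figure D2:**
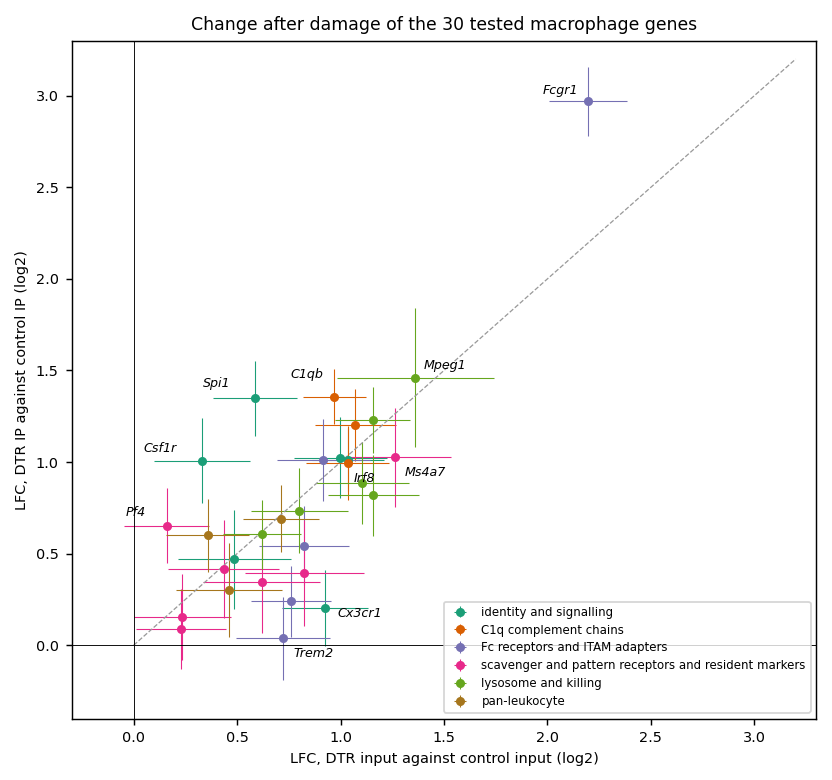
LFC after damage in input (horizontal) and in IP (vertical) for the 30 tested genes, with bars of 1 SE and colours for the groups of genes. The dashed line marks equal change. Fcgr1 lies apart at 2.20 and 2.97, Spi1 and Csf1r lie above the line, and Trem2 and Cx3cr1 lie below it.

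Fcgr1 showed the largest change. In control input it was at 1.33, 0.788, 1.18 and 1.37 CPM in replicates 1 to 4, and in DTR input at 8.57, 6.65, 6.56 and 9.41. The lowest damaged pool thus exceeded the highest control pool severalfold, and the ratio of group means was 6.67. The LFC was 2.20 (SE 0.19, adjusted p = 1.1e-07). Control IP held only 7 to 17 reads of Fcgr1 per library, or 0.209, 0.495, 0.265 and 0.360 CPM, whereas DTR IP held 6.88, 5.55, 7.26 and 5.95 CPM. The ratio of means in IP was 19.3 and the LFC 2.97 (SE 0.19, adjusted p = 2.1e-09). At so few control reads the size of the LFC followed the pseudocount, from 2.41 with 1 CPM to 3.78 with 0.1 CPM, and passed the test at each. Per kilobase, Fcgr1 went from 0.452 CPM in control input to 3.01 in DTR input.

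Of the 5 Fc receptor and ITAM genes all passed as higher in input and 2, Fcgr1 and Tyrobp, in IP, with smaller LFC values than Fcgr1 for the other 4. Fcer1g, the shared signalling chain that Fcgr1 and Fcgr3 need at the cell surface, was at 10.1, 10.4, 7.52 and 9.06 CPM in control input and 20.3, 13.4, 16.2 and 17.5 in DTR input, and rose with an LFC of 0.82 (SE 0.22, adjusted p = 0.016). Fcgr3, the low-affinity IgG receptor, rose from 8.31 ± 1.29 to 14.8 ± 3.51 CPM (mean ± SD, n = 4), an LFC of 0.76 (SE 0.19, adjusted p = 0.012). In IP both had overlapping groups, with LFC values of 0.54 (SE 0.22, adjusted p = 0.1) and 0.24 (SE 0.19, adjusted p = 0.46). Tyrobp, the adapter DAP12, rose in both, from 8.60, 9.77, 8.75 and 8.54 to 17.5, 13.7, 16.9 and 22.05 CPM in input and from 2.45, 2.18, 2.32 and 1.18 to 4.82, 2.99, 7.52 and 5.46 in IP. Its LFC was 0.92 (SE 0.23, adjusted p = 0.0098) in input and 1.01 (SE 0.23, adjusted p = 0.0042) in IP. Trem2, the lipid and apoptotic cell receptor that signals through DAP12, was at 3.31, 4.42, 4.18 and 4.55 CPM in control input and 8.01, 4.76, 7.92 and 9.96 in DTR input, where replicate 2 was barely above the highest control. The input LFC was 0.72 (SE 0.23, adjusted p = 0.044), and leaving out any 1 of 7 of the 8 input libraries lost the call. In IP the Trem2 groups overlapped, with an LFC of 0.04 (SE 0.23, adjusted p = 0.94).

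The 3 C1q chains, which assemble into the molecule that starts the classical complement pathway and tags dying cells, rose together in input and in IP. Their genes lie side by side within 18675 bp on the minus strand of chromosome 4 (GRCm38). C1qb was nearly constant in control input at 22.99, 23.8, 24.03 and 23.8 CPM and reached 52.02, 35.7, 45.7 and 58.1 in DTR input. C1qc went from 24.1, 21.4, 21.7 and 23.1 to 55.8, 35.98, 48.2 and 56.7 CPM, and C1qa from 14.1, 10.6, 12.6 and 11.3 to 31.4, 17.9, 22.9 and 31.1. No damaged pool of any chain overlapped a control pool, and the ratios of means were 2.02 for C1qb, 2.18 for C1qc and 2.13 for C1qa. The input LFC was 0.97 (SE 0.15, adjusted p = 0.0002) for C1qb, 1.07 (SE 0.20, adjusted p = 0.00085) for C1qc and 1.04 (SE 0.20, adjusted p = 0.0014) for C1qa. In IP, C1qb rose from 4.72, 3.70, 4.41 and 4.05 to 14.7, 10.4, 12.1 and 14.4 CPM, an LFC of 1.36 (SE 0.15, adjusted p = 4e-06), while C1qc and C1qa rose by LFC values of 1.20 and 0.99, again without overlap.

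All 6 lysosomal and killing genes passed as higher in both sample types. Lyz2, the lysozyme of macrophages, was at 23.6, 24.8, 25.4 and 19.3 CPM in control input and 64.7, 37.9, 56.6 and 56.7 in DTR input, an LFC of 1.16 (SE 0.18, adjusted p = 0.00017). In IP it went from 4.46, 3.64, 3.997 and 3.17 to 11.8, 7.37, 10.3 and 13.5 CPM, an LFC of 1.23 (SE 0.18, adjusted p = 7.5e-05). Lyz2 has a near-identical copy, Lyz1, which was at 0.134 ± 0.0301 CPM in control input and 1.46 ± 0.425 in DTR input. How reads shared by the 2 copies were counted is not given in the sources used here, and the Lyz2 values are uncertain to that extent. Ctss, the lysosomal protease cathepsin S, was at 12.3, 11.01, 9.60 and 13.3 CPM in control input and 27.6, 21.4, 26.7 and 29.3 in DTR input, an LFC of 1.16 (SE 0.22, adjusted p = 0.0012). Its IP values, 2.12, 2.85, 1.68 and 1.18 CPM in controls and 4.08, 2.42, 5.53 and 5.06 after damage, overlapped through DTR replicate 2, with an LFC of 0.82 (SE 0.22, adjusted p = 0.015). That IP call was lost with the replicate number as a block (adjusted p = 0.055), without DTR IP replicate 3 (0.055) and with the compared groups alone (0.069). Cd68, the lysosomal membrane glycoprotein used to stain macrophages, went from 6.39, 7.69, 6.02 and 6.37 to 14.2, 11.2, 16.9 and 18.2 CPM in input, an LFC of 1.11 (SE 0.23, adjusted p = 0.0023). Its IP LFC was 0.89 (SE 0.23, adjusted p = 0.01).

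The other 3 genes of that group lost calls more often when libraries were left out. Mpeg1, which encodes the pore-forming protein perforin-2, had the second largest ratio of means in input (3.08) and in IP (4.84). Its input values scattered widely, 7.10, 2.76, 2.56 and 5.25 CPM in controls and 14.98, 5.71, 7.79 and 26.04 after damage, and the groups overlapped. The input LFC was 1.36 (SE 0.38, adjusted p = 0.023), and the call was lost in 4 of the 8 fits that left out an input library. In IP the Mpeg1 groups did not overlap, at 0.867, 0.582, 0.647 and 0.458 CPM in controls and 4.63, 2.03, 2.12 and 3.58 after damage, with an LFC of 1.46 (SE 0.38, adjusted p = 0.012). Laptm5, a lysosomal membrane protein of blood cells, rose by an LFC of 0.62 (SE 0.19, adjusted p = 0.037) in input and 0.61 (SE 0.19, adjusted p = 0.036) in IP. Cybb, the catalytic subunit of the phagocyte NADPH oxidase, rose by 0.80 (SE 0.23, adjusted p = 0.028) and 0.73 (SE 0.23, adjusted p = 0.038). Both lost their input and IP calls in 5 or 6 of 8 fits that left out a library.

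**Figure D3:**
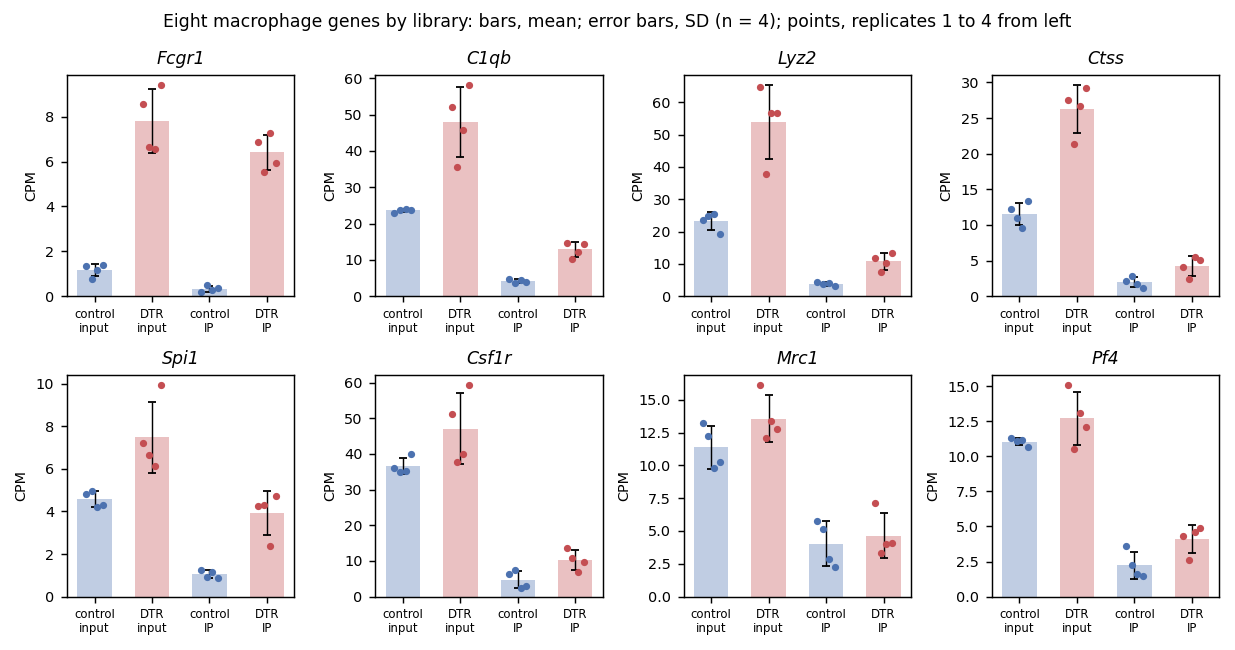
CPM of 8 macrophage genes in control input, DTR input, control IP and DTR IP. Bars are means, error bars SD (n = 4) and points the replicates 1 to 4 from left, with axes starting at 0. Fcgr1, C1qb, Lyz2 and Ctss are higher in all 4 DTR inputs than in any control input, while the input values of Csf1r, Mrc1 and Pf4 overlap between groups.

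Of the 6 genes of identity and signalling, 3 passed as higher in input (Cx3cr1, Aif1, Irf8) and 4 in IP (Csf1r, Aif1, Spi1, Irf8). Irf8 was at 4.91, 4.05, 4.93 and 5.25 CPM in control input and 11.1, 9.55, 9.55 and 11.9 in DTR input, and at 2.15, 2.33, 2.82 and 2.32 in control IP and 7.39, 5.20, 4.67 and 6.81 in DTR IP. No values overlapped, with an LFC of 1.04 (SE 0.17, adjusted p = 0.00037) in input and 1.01 (SE 0.17, adjusted p = 0.00039) in IP. Spi1 was at 4.84, 4.96, 4.21 and 4.32 CPM in control input and 7.21, 6.65, 6.15 and 9.93 in DTR input, also without overlap, but the LFC of 0.59 (SE 0.20, adjusted p = 0.071) did not pass. It passed with the replicate block (adjusted p = 0.037), CPM as deposited (0.045), median-centred CPM (0.042), the compared groups alone (0.043), edgeR (0.049) and DESeq2 (0.026). In IP it rose from 1.26, 0.931, 1.15 and 0.850 to 4.24, 4.31, 2.39 and 4.73 CPM, an LFC of 1.35 (SE 0.20, adjusted p = 0.00011). Csf1r was the most abundant member by CPM in control input at 36.1, 34.97, 35.3 and 39.9, and DTR input at 51.3, 37.8, 39.99 and 59.2 overlapped it through replicate 2. The input LFC was 0.33 (SE 0.23, adjusted p = 0.44) and did not pass. In IP, Csf1r was at 6.22, 7.45, 2.32 and 3.04 CPM in controls and 13.5, 10.8, 6.92 and 9.70 after damage, and rose with an LFC of 1.01 (SE 0.23, adjusted p = 0.0054) although the lowest damaged library lay below the highest control.

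Cx3cr1, the fractalkine receptor of resident macrophages, was at 10.01, 9.26, 6.84 and 7.94 CPM in control input and 14.7, 12.9, 17.7 and 22.6 in DTR input, an LFC of 0.92 (SE 0.21, adjusted p = 0.005). Its IP groups overlapped, at 4.22, 3.70, 2.70 and 2.39 CPM in controls and 4.66, 3.06, 3.61 and 5.69 after damage, with an LFC of 0.20 (SE 0.21, adjusted p = 0.58). Aif1, the actin-binding protein Iba1, rose in both, by 1.000 (SE 0.22, adjusted p = 0.0049) in input and 1.02 (SE 0.22, adjusted p = 0.0035) in IP, where DTR replicate 2 fell among the controls. Adgre1, the antigen F4/80, was at 9.03, 7.46, 7.23 and 8.54 CPM in control input and 14.3, 7.39, 13.1 and 13.1 in DTR input. Replicate 2 again lay within the control range, and the LFC of 0.49 (SE 0.27, adjusted p = 0.3) did not pass. Exons of Csf1r, Cx3cr1 and Lcp1 overlap annotated genes on the other strand, and whether the authors counted by strand is not given in the sources used here.

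Of 7 tested scavenger receptors and markers of resident macrophages, 1 passed as higher in input (Ms4a7) and 2 in IP (Ms4a7 and Pf4), where 7.17% and 8.44% of all tested genes were higher. Mrc1, the mannose receptor CD206, was at 13.2, 12.2, 9.79 and 10.3 CPM in control input and 16.1, 12.1, 13.4 and 12.8 in DTR input, with wide overlap and an LFC of 0.23 (SE 0.22, adjusted p = 0.61). Lyve1, the hyaluronan receptor of perivascular macrophages and lymphatic vessels, was at 1.91, 0.873, 2.01 and 1.63 CPM in control input and 2.22, 1.86, 2.22 and 2.19 in DTR input, an LFC of 0.23 (SE 0.24, adjusted p = 0.63). Pf4, a chemokine of platelets that resident macrophages also make, was nearly level in control input at 11.3, 11.1, 11.1 and 10.7 CPM and stood at 15.1, 10.6, 13.1 and 12.1 in DTR input, an LFC of 0.16 (SE 0.21, adjusted p = 0.72). Its IP LFC of 0.65 (SE 0.21, adjusted p = 0.037) passed, and with the replicate block had adjusted p = 0.071.

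Ms4a7, a tetraspanning membrane protein of macrophages, passed in both sample types. It was at 9.13, 5.94, 6.07 and 7.76 CPM in control input and 24.6, 10.8, 17.7 and 20.9 in DTR input without overlap, an LFC of 1.26 (SE 0.27, adjusted p = 0.0035), and rose by 1.03 (SE 0.27, adjusted p = 0.013) in IP. Msr1, the class A scavenger receptor, was at 1.74, 1.52, 0.943 and 1.73 CPM in control input and 3.37, 2.08, 3.75 and 4.29 in DTR input. These groups did not overlap and the LFC of 0.82 (SE 0.29, adjusted p = 0.071) did not pass, but Msr1 passed under 7 other settings, with adjusted p = 0.024 with the replicate block. Ly86, the partner of the receptor RP105, likewise stood at 1.42 ± 0.177 and 2.88 ± 1.25 CPM (mean ± SD, n = 4), an LFC of 0.62 (SE 0.28, adjusted p = 0.19) with adjusted p = 0.043 under the block. Cd14, the coreceptor for lipopolysaccharide, was at 3.96, 3.10, 3.02 and 3.75 CPM in control input and 5.11, 3.27, 5.64 and 7.16 in DTR input, an LFC of 0.43 (SE 0.27, adjusted p = 0.36). Cd163 had group means of 0.480 ± 0.352 CPM in control input and 0.609 ± 0.406 in DTR input and was not tested.

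The pan-leukocyte genes were mixed. Cd53, a tetraspanin of white blood cells, was at 4.43, 2.79, 3.46 and 3.05 CPM in control input and 6.23, 5.74, 7.02 and 5.69 in DTR input without overlap, an LFC of 0.71 (SE 0.18, adjusted p = 0.013), and rose by 0.69 (SE 0.18, adjusted p = 0.013) in IP. Ptprc, the leukocyte antigen CD45, was at 2.14, 2.73, 1.69 and 2.69 CPM in control input and 3.66, 3.24, 3.68 and 4.02 in DTR input, which did not overlap, yet its LFC of 0.46 (SE 0.26, adjusted p = 0.3) did not pass. Lcp1, the actin bundler L-plastin, was at 17.6, 19.8, 16.4 and 17.3 CPM in control input and 20.9, 19.96, 21.2 and 32.8 in DTR input, where replicate 4 stood above the rest. The input LFC was 0.36 (SE 0.20, adjusted p = 0.3), and in IP 0.60 (SE 0.20, adjusted p = 0.048), which became adjusted p = 0.071 with the replicate block. With that block 22 genes were higher in input and 16 in IP, and the share of all tested genes called in that fit is not given here.

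By the stricter rule of the study (a change of 1 or more on the log2 scale, a passed test, and a lowest DTR value above 1.5 times the highest control value), 4 macrophage genes were higher in input, namely Irf8, Fcgr1, Cd68 and Ctss, where 1.34% of all tested genes were. In IP 5 were higher, namely Spi1, C1qb, Fcgr1, Lyz2 and Mpeg1, against 1.12% of all tested genes. Fcgr1 was the gene on both lists.

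The second question was how the relative level of macrophage genes in IP compared with that in input. Every tested macrophage gene was lower in control IP than in control input, 30 of 30, where 20.7% of all tested genes were lower. After damage 29 of 30 were lower in IP, against 20.5% of all tested genes. The median LFC of IP over input was -1.52 in controls and -1.68 in DTR cochleae. With a difference of 1 or more on the log2 scale and the same separation of 1.5 times, a cut chosen here that is not the one the study used for IP against input, 21 genes were lower in each, against 3.56% and 2.11% of all tested genes. IP values lay wholly below input values for 29 of 31 genes in controls (background 21.5%) and for 28 of 31 after damage (background 16.2%). The tag is expressed where GLAST drives Cre, and the summed CPM of the macrophage genes in IP was 24.3% of that in input in controls and 29.1% in DTR cochleae.

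The percentage differed widely among the genes. It compares relative levels in 2 libraries, each scaled to the same total, and is not a share of RNA recovered. It can exceed the input level, as for the summed SC and greater epithelial ridge genes, at 121% in controls and 132% in DTR cochleae. In controls the IP mean ranged from 13.01% of the input mean for Csf1r to 50.3% for Irf8, with a median of 25.2%. After damage it ranged from 16.3% for Ctss to 82.2% for Fcgr1, with a median of 29.6% and Irf8 next below Fcgr1 at 57.2%. The percentage was higher after damage for 23 of 31 genes, where it was for 54.3% of all tested genes. The direction depended on the scale. On the quantile-normalized log2 scale of the test the LFC of IP over input was higher after damage for 11 of 30 genes (49.1% of all tested genes), with a median difference of -0.02, and with CPM as deposited for 18 of 30 (54.2%), with a median difference of 0.08. For comparison, the summed IP level was 20.7% of input for erythroid genes, 38.3% for endothelial genes, 33.5% for Schwann cell genes and 40.5% for hair cell genes in controls. In DTR cochleae the same lists stood at 25.01%, 43.9%, 46.8% and 53.4%, each higher after damage. Not every list moved that way. Lymphocyte genes went up, from 61.7% to 78.2%. Neutrophil genes went down, from 56.8% to 47.2%, as did a list of other myeloid signalling and cytoskeleton genes, from 77.3% to 71.7%.

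**Figure D4:**
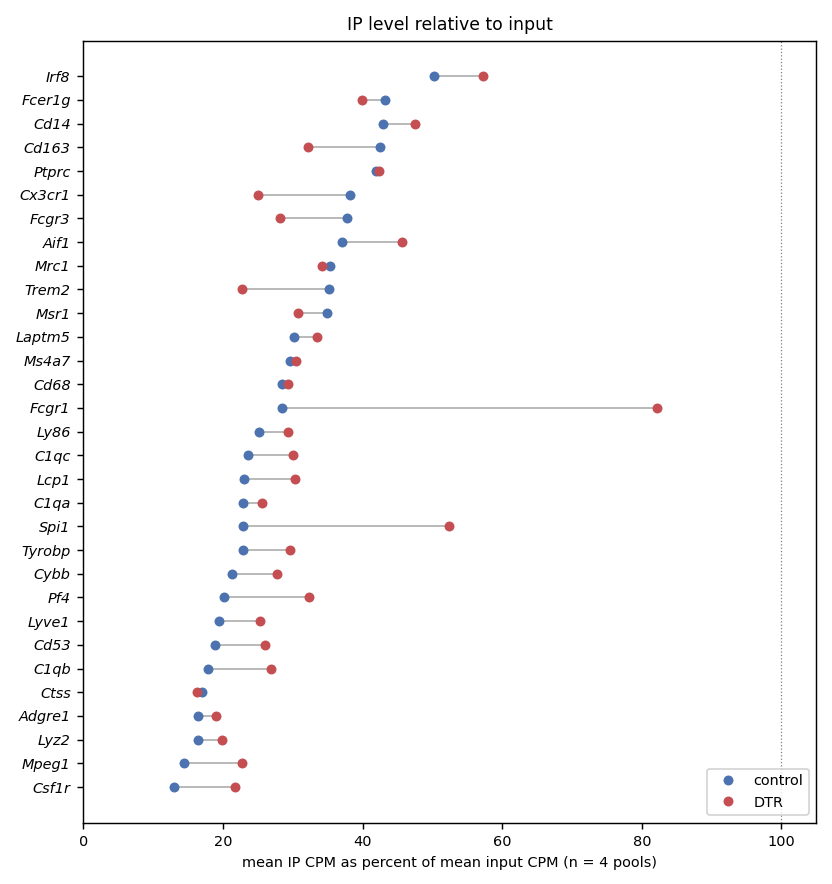
Mean IP CPM as a percent of mean input CPM for each macrophage gene, in control (blue) and DTR (red) cochleae, ordered by the control value. Genes lie between 13.01% and 50.3% in controls, and Fcgr1 moves from 28.4% to 82.2%.

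Fcgr1 was the gene that was not lower in IP after damage. Its IP value was 15.7, 62.8, 22.3 and 26.2% of the input value in the 4 control pools and 80.3, 83.5, 111 and 63.2% in the 4 DTR pools, and the lowest DTR pool was only just above the highest control pool. The LFC of IP over input was -0.995 (SE 0.19, adjusted p = 0.00033) in controls and -0.22 (SE 0.19, adjusted p = 0.37) after damage. The difference between these changes, which equals the difference between the IP and input responses to damage, was 0.77 (SE 0.26, adjusted p = 0.64). By this test 0 of 30 macrophage genes differed, where 0.0118% of all tested genes passed as lower and 0 as higher. At an unadjusted p under 0.05 there were 4 of 30 macrophage genes, where 870 of all 16994 tested genes met that cut. They were Fcgr1 (0.77) and Spi1 (0.76) with the larger change in IP, and Cx3cr1 (-0.72) and Trem2 (-0.68) with the larger change in input. On recovered read counts edgeR called 0 of these genes and DESeq2 called 1, Fcgr1, with a difference of 1.504 (adjusted p = 0.039). The fit with the replicate block, which pairs input and IP of each pool, called 0 of the 30 macrophage genes. A difference between input and IP responses was therefore not shown for the genes that passed in 1 sample type alone.

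Other genes of macrophage pathways were taken from separate lists, whose counts stand beside the 7.17% higher and 5.21% lower of all tested genes in input and the 8.44% higher and 7.3% lower in IP. Of 42 tested genes of myeloid signalling and the myeloid cytoskeleton, 8 were higher and 1 lower in input, and 4 were higher and 2 lower in IP. Slc11a1, the phagosomal metal transporter NRAMP1, went from 1.63 ± 0.230 to 5.11 ± 1.63 CPM in input, with an LFC of 1.23 (SE 0.21, adjusted p = 0.0005). Cd300a, an inhibitory receptor for phospholipids of dying cells, went from 1.81 ± 0.408 to 4.92 ± 0.698 CPM, with an LFC of 1.12 (SE 0.26, adjusted p = 0.0072), and Vav1, a guanine nucleotide exchange factor of blood cells, rose in IP, with an LFC of 1.07 (SE 0.30, adjusted p = 0.021). Cyba, the partner of Cybb in the oxidase and the most abundant gene of the list, was at 70.3 ± 2.45 and 83.2 ± 5.14 CPM and did not pass. The genes that fell were Tlr2, in input with an LFC of -0.64 (SE 0.18, adjusted p = 0.022) and in IP, and Ptpn6, in IP with -0.54 (SE 0.14, adjusted p = 0.015), both named after their values were seen.

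The ligands of the 2 survival and adhesion receptors did not pass in either sample type (0 of 3, Csf1, Il34 and Cx3cl1). Cx3cl1, the fractalkine that binds Cx3cr1, was at 47.9 ± 5.59 CPM in control input and 54.9 ± 8.34 in DTR input, an LFC of 0.17 (SE 0.15, adjusted p = 0.55). Of 7 tested genes of antigen presentation by MHC class II, 3 were higher in input and 0 lower, and in IP 1 was higher and 1 lower. Cd74, the invariant chain, went from 4.42 ± 0.468 to 10.5 ± 2.80 CPM in input, with an LFC of 1.11 (SE 0.21, adjusted p = 0.0012), and from 1.64 ± 0.266 to 5.86 ± 1.41 in IP, with an LFC of 1.42 (SE 0.21, adjusted p = 8.8e-05). Ciita, the master activator of class II genes, went from 0.303 ± 0.220 to 1.47 ± 0.236 CPM in input, with an LFC of 1.19 (SE 0.23, adjusted p = 0.0012), and H2-DMa from 27.3 ± 6.05 to 45.5 ± 1.95, with an LFC of 0.74 (SE 0.16, adjusted p = 0.0044). Ciita, as low as 0.119 CPM in control input and 0.299 in control IP, met the expression filter only through DTR libraries. Its call therefore adds no separate support. The gene that was lower in IP was H2-Eb1, named after its values were seen, with an LFC of -0.52 (SE 0.15, adjusted p = 0.021).

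Of 11 tested complement genes other than C1q, 1 was higher in input and 1 in IP, shares close to those over all tested genes. C3, the central complement protein whose fragments coat targets for phagocytes, went from 0.753 ± 0.212 to 4.62 ± 1.89 CPM in input, with an LFC of 1.81 (SE 0.28, adjusted p = 0.00019), and Cfp, which stabilises the C3 convertase, rose in IP, with an LFC of 0.94 (SE 0.22, adjusted p = 0.0069). Genes of efferocytosis, the uptake of dying cells, gave 1 higher and 2 lower of 15 in input, and 1 higher and 3 lower in IP. Lrp1, a receptor for apoptotic cells that many cell types make, rose by 0.47 (SE 0.15, adjusted p = 0.041) in input and 0.86 (SE 0.15, adjusted p = 0.00036) in IP. Itgb5 fell in both, with an LFC of -0.50 (SE 0.14, adjusted p = 0.024) in input and -0.60 (SE 0.14, adjusted p = 0.006) in IP. Gas6 fell in IP, with an LFC of -0.49 (SE 0.13, adjusted p = 0.014). Elmo1 in input (LFC -0.44) and Tyro3 in IP (LFC -0.43) also fell, both named after their values were seen. The lipid-handling and damage-associated list gave 1 higher and 1 lower of 15 in input and 2 of each in IP. Apoe, the lipoprotein that macrophages and glia-like cells secrete, rose in IP, with an LFC of 0.81 (SE 0.19, adjusted p = 0.0066), and Lpl, lipoprotein lipase, rose in both, by 0.79 (SE 0.24, adjusted p = 0.035) in input. Nceh1 fell in IP, with an LFC of -0.58 (SE 0.11, adjusted p = 0.0009). Cd9, named after its values were seen, fell in both, with an LFC of -0.39 in input and -0.44 in IP. Of 16 further resident macrophage and microglia markers, 0 were higher and 1 lower in input. The lower gene was Sall1, a transcription factor that cochlear epithelium also expresses, which fell from 82.5 ± 13.7 to 31.2 ± 6.07 CPM, with an LFC of -1.38 (SE 0.15, adjusted p = 2.7e-06). Stab1, a scavenger receptor of macrophages and vessels, rose in IP, with an LFC of 0.996 (SE 0.24, adjusted p = 0.0076).

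Markers of other cell types that the dissection could hold were set beside these changes. Over all tested genes, 7.17% were higher and 5.21% lower in input, and 8.44% higher and 7.3% lower in IP. The summed level of 16 lymphocyte genes was 2.66 to 4.67 CPM in control input and 7.94 to 10.7 in DTR input. Only 4 of the 16 met the expression filter and were tested, and 3 (Cd3d, Cd4, Cd79a) were higher. Cd3d and Cd79a, at most 0.121 and 0.381 CPM in control input, met that filter only through DTR libraries. Their calls therefore add no separate support. The summed level of 15 neutrophil genes was 18.3, 12.4, 10.3 and 9.96 CPM in control input and 51.5, 16.5, 9.81 and 14.98 in DTR input, with replicate 1 apart, and 0 of 7 tested passed in input. In IP 0 of the 7 were higher and 1 was lower (Camp). For 5 tested monocyte genes, 0 were higher and 1 was lower in input (Ace), and in IP 1 was higher (Plac8) and 1 lower (Ace). Plac8, at most 0.320 CPM in control IP, also met the expression filter only through DTR libraries. Erythroid genes, mostly hemoglobin, summed to 359.6 to 624 CPM in control input and 209 to 373 in DTR input, and 0 of 5 passed. Of 10 endothelial genes 1 was higher in input and 4 in IP (Emcn, Esam, Pecam1 and Plvap), and the list summed to 356 to 419 CPM in control input and 453 to 558 in DTR input. Of 3 tested platelet genes, a cell type that also makes Pf4, 1 was higher in each sample type (Itga2b), and the list summed to 8.05 to 11.8 CPM in control input and 11.2 to 14.6 in DTR input. Of 9 Schwann cell genes 0 were higher and 5 lower in input. Of 12 SC and greater epithelial ridge genes 2 were higher and 6 lower in input, and of 12 hair cell genes 1 was higher and 1 lower. In IP the Schwann cell list gave 0 higher and 3 lower. The SC and greater epithelial ridge list gave 0 higher and 6 lower in IP, and the hair cell list 3 higher and 1 lower. Of 9 mesenchyme genes 0 were higher and 0 lower in input, and 4 were higher and 0 lower in IP. The mesenchyme list summed to 4970 to 5845 CPM in control IP and 6706 to 11133 in DTR IP. In input, the hair cell counts and the endothelial count are near the shares over all tested genes. Lymphocyte and endothelial sums thus moved up with the macrophage genes, as did mesenchyme sums in IP, and Schwann cell sums moved down. Whether these shifts came from changes in cell content was not tested. Their part in the macrophage result was not tested either.

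**Figure D5:**
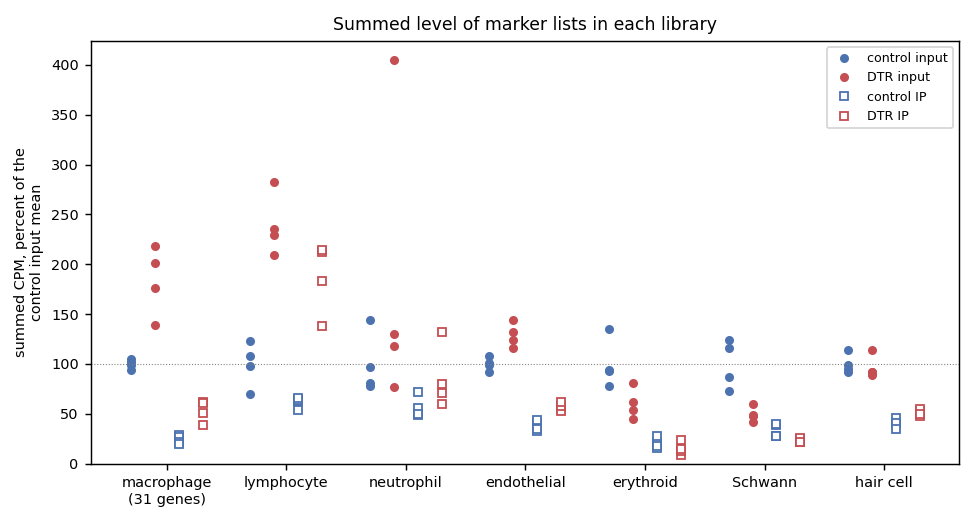
Summed CPM of marker lists in each library, as a percent of the mean of the 4 control inputs. Filled circles are input, open squares IP, blue control and red DTR. Macrophage and lymphocyte sums are higher in all DTR inputs than in any control input, and a single DTR input library stands apart for neutrophil genes.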

How the data were processed

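RNA from input and anti-HA IP of 8 cochlear pools was made into libraries with a SMART-Seq v4 kit, aligned by the authors to GRCm38 with HISAT2 and counted on genes with HTSeq (the submitters' processing notes name TopHat). The annotation release and the strand setting are not given in the sources used here. The deposited values are CPM for each gene, scaled by the authors to the reads counted on genes. Each column was checked to sum to 1000000, and 100% of values were whole multiples of 1 read within a tolerance of 0.01, so read counts were recovered for edgeR (version 4.0.16) and DESeq2 (version 1.42.0), run as alternatives. Of 50316 genes listed, 2587 were NA in every library and 173 had no name.

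CPM were quantile normalized, log2 transformed with a pseudocount of 0.5, and kept at 0.5 CPM or more in all 4 replicates of a group (16994 genes). Group means over the 16 libraries were fitted in R 4.3.3 with limma 3.58.1 (trended prior variance), p-values were adjusted by Benjamini and Hochberg's method over every tested gene, and a gene passed at an adjusted p under 0.05. LFC values are on the log2(CPM + 0.5) scale and understate changes of low genes. In the study's rule, values were raised to a floor of 1.08 CPM. The fit was tested on simulated data.

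Groups came from the sample labels. Same-numbered libraries deviated together in all 4 pairings of groups (lowest correlation 0.288), and input and IP of 1 number come from the same homogenate, so a replicate block was fitted as an alternative. Other alternatives changed the scaling, pseudocount, filter, tool, samples in the fit, and left out each library. The members and lists were chosen with earlier results of these data known. Named were all members and, from each list, its most abundant gene and up to 3 of the largest changes that passed, with Lyz1, Lgr5 and Slc1a3. Intervals and floors from reads cover counting error only. Gene positions, exon lengths and overlaps were taken from GENCODE M21.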

Additional observations from a re-analysis of the deposited data

Results flagged for a closer look

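Dixon's test was applied to the CPM of the 31 macrophage genes in the 4 groups of 4 libraries, 124 sets of values, and marked a library far from the other 3 in 5 of them, where chance marks about 1 in 20. DTR replicate 2 was the low library in 3. In DTR input it held 7.39 CPM of Adgre1, with the other 3 libraries at 13.1 to 14.3, and 1.86 CPM of Lyve1, with the others at 2.19 to 2.22. In DTR IP it held 1.92 CPM of Aif1, with the others at 4.41 to 4.84. Ptprc was high in control IP replicate 1, at 1.88 CPM with the others at 0.582 to 0.794, and Lcp1 was high in DTR input replicate 4, at 32.8 CPM with the others at 20.0 to 21.2.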

How the results depend on the processing

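Leaving out 1 library at a time gave 13 to 20 macrophage genes higher in input, 15 to 19 higher in IP, 30 lower in control IP and 29 to 30 lower in DTR IP against input. Other settings gave 15 (no filter on low values) to 22 (replicate block) in input, 14 (compared groups alone) to 20 (DESeq2) in IP, 28 to 30 and 27 to 29 (fewest with a filter at 2 CPM, where fewer genes were tested). The share of all tested genes called under each setting is not given here, so these counts have no background of their own. No call changed direction. For the difference between the IP and input responses, DESeq2 gave 1 gene in place of 0. The replicate block added Msr1, Spi1 and Ly86 in input, took Ctss, Lcp1 and Pf4 from IP, and changed no other call of these genes. Spi1 and Msr1 in input also passed under other settings. Leaving out replicate 2 of DTR input or DTR IP in the counts of genes without overlap, added after the data were seen, gave 29 in place of 23 and 20 in place of 14. Such a count cannot fall when a library is left out. Calls of Trem2, Laptm5, Cybb and Mpeg1 in input and of Lcp1, Pf4, Laptm5 and Cybb in IP were lost under several settings, and the cause was not tested. Depth limits Cd163 and the control IP values of Fcgr1, Lyve1, Msr1 and Ly86, which rest on few reads.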
